A study of Homo sapiens with 2 samples.

Results

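SHH and NOTO are a pair of genes known from the notochord, the rod of cells under the early neural tube, and they were taken by symbol from the authors' deposited table. Both had a row, which makes 2 of the 2005 genes in that table. The pair was chosen by its deposited levels in both libraries, whose values were known, so the levels of SHH and NOTO are given as a description, with no test.

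The cells were HES2, an established human embryonic stem cell line. One culture was infected with a scramble lentivirus and the other with a Tfcp2l1 knockdown lentivirus, which carries a short hairpin RNA (shRNA) against the transcription factor TFCP2L1. Both were kept for 3 passages with 10% KSR, FGF2 at 10 ng/ml and Activin A at 10 ng/ml, so the controls carried the same growth factors as the knockdown cells. Each group was 1 library, so the differences below have no replicate check. A difference between the cultures and an effect of the shRNA cannot be told apart. In such bulk RNA, more cells of a type and more RNA per cell cannot be told apart either.

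SHH encodes Sonic hedgehog, a secreted ligand of the hedgehog pathway. The ligand binds the receptor PTCH1 and thereby frees SMO, which lets the GLI transcription factors switch on targets such as PTCH1 and GLI1. In the embryo SHH is made by the node, the notochord and prechordal plate and later by the floor plate and parts of the gut endoderm. NOTO encodes a homeodomain transcription factor of the node and notochord, and in the mouse it acts above Foxj1 in the making of node cilia.

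The promoters are shown because both genes were near 0 in the scramble library, and a start site is where a factor such as TFCP2L1 could be sought. Sequences are from RefSeq on GRCh38.p14, whereas the submitters' processing notes name hg19, and no coordinate of the deposited data was used with them. Capitals mark the letters of a searched motif. The SHH sequence is the 250 bases before the RefSeq start, on the minus strand, at chr7:155812464-155812713. It lies outside every exon of the gene in GENCODE 29, which starts SHH 190 bases after the RefSeq start.
SHH: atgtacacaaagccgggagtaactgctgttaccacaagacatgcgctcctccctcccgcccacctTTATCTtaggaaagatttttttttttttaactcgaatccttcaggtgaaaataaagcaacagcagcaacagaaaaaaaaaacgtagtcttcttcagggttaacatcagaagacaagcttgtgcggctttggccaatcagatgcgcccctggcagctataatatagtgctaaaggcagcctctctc
For NOTO, GENCODE 29 puts the start of the gene 316 bases before the RefSeq start, so the same 250 bases all fall in an annotated exon. A stretch of 30 bases around a motif match is therefore shown, on the plus strand at chr2:73202460-73202489.
NOTO: gcacagagCGGGCGCTCACAGGctttgggg

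Each motif was searched as an exact word on both strands from 250 bases before to 50 after the RefSeq start. The 2 windows had no match to the same word. The SHH window held the GATA word AGATAA, read on the opposite strand 185 bases before the RefSeq start, and 10.3% of 35116 promoter windows hold that word. The NOTO window held the spaced TFCP2L1 word (CCNG, 6 bases of any kind, then CCNG) on the opposite strand, 106 bases before the RefSeq start. That word is loose, and 39.4% of all windows hold it. NOTO also held the short SMAD word CAGACA just after the start, as did 16.9% of windows. Neither window held the words for FOXA (TGTTTAC, 3.42% of windows), T-box (TCACACCT, 0.980%), GLI (GACCACCC, 0.974%), TCF/LEF (CTTTGAT, 2.62%), FOXH1 (TGTGGATT, 0.817%), SOX (ACAATG, 10.8%) or the SMAD palindrome (GTCTAGAC, 0.202%). Base composition set the promoters apart, with 44.4% G and C before SHH and 66.8% before NOTO, beside a median of 58.0% over all windows.

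TFCP2L1, the target of the shRNA, measured 3.19 FPKM with scramble and 0.33 FPKM with the Tfcp2l1 shRNA. FPKM is a read count scaled to gene length and library size. Inferred library sizes were about 23460000 reads (scramble) and about 22680000 reads (knockdown). Every row of the deposited table had passed limits on ratio and false discovery rate, with 1084 genes higher and 921 lower after knockdown. For a gene without a row the level is unknown here.

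SHH (gene ID 6469) measured 0.02 FPKM with scramble and 6.11 FPKM with the shRNA. SHH was therefore close to the lowest printed level, 0.01 FPKM, in the control and well above it in the knockdown library. These levels rest on 1 scramble read and 276 knockdown reads. The exact Poisson 95% interval, which covers counting error only, ran from 0.00054 to 0.119 FPKM with scramble and from 5.42 to 6.88 FPKM with the shRNA, and the 2 did not overlap. The ratio of reads scaled by depth, knockdown over scramble, was 285, with an exact (Clopper-Pearson) 95% interval of 50.8 to 11315. The width of that interval comes from the single control read. On the log2 scale the ratio was 5.69 with a pseudocount of 0.1 FPKM and 2.80 with a pseudocount of 1 FPKM. The authors' deposited table gives 8.26.

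NOTO (gene ID 344022) measured 0.04 FPKM with scramble and 2.85 FPKM with the shRNA. It too was near the lowest printed level in the control. The inferred reads numbered 1 and 89. The deposited control level corresponds to 1.30 reads at the gene's length, and the deposited p-value matches 1 whole read. The Poisson 95% intervals were 0.00078 to 0.172 FPKM and 2.28 to 3.49 FPKM, again without overlap. The ratio of reads was 92.1 (95% interval 16.1 to 3676), and on the log2 scale, with 0.1 FPKM added to each level, it was 4.40. The authors' deposited table gives 6.15.

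**Figure D1:**
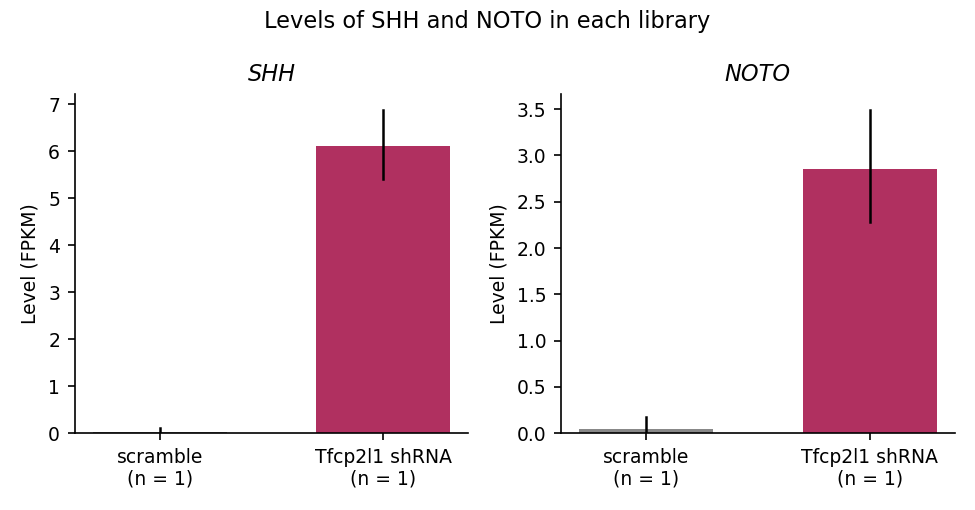
Level in FPKM (vertical axes, which differ between panels) of SHH and NOTO in the scramble and the Tfcp2l1 shRNA library, 1 library each. Bars are the deposited levels and lines the exact Poisson 95% intervals of counting. SHH stood at 0.02 and 6.11 FPKM and NOTO at 0.04 and 2.85 FPKM.

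Both genes were listed as higher, as were 5.86% of the 18489 genes that the authors tested, a number worked out from the deposited p-values and rates. Another 4.98% were listed as lower. Because the pair was chosen for this difference, nothing is read from their count. By the authors' log2 ratio, 13 of the 1084 higher genes stood above SHH and 44 above NOTO. By level in the knockdown library they were nearer the middle: 38.0% of higher genes were above SHH and 56.8% above NOTO, and the median higher gene was at 3.89 FPKM. Higher genes with at most 1 scramble read numbered 95.

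In the knockdown library SHH was 2.15-fold above NOTO per length (95% interval 1.69 to 2.77, counting error only). The intervals of their ratios overlapped, and a difference between the 2 ratios was not detectable at this depth. Of the 31-base words of the longest transcript, 0.452% for SHH and 4.97% for NOTO also occur in another gene on either strand. Those transcripts have 4454 and 2749 bases, whereas the deposited gene lengths are 2056 and 1448 bases. The shares may therefore differ for the sequence that the authors counted. No other RefSeq gene overlaps SHH or NOTO.

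Among the listed hedgehog pathway genes SHH had by far the highest ratio, and the others were within 6-fold of the control level. Of 28 pathway genes, 5 had a row, 4 higher (14.3%) and 1 lower (3.57%), beside 5.86% and 4.98% of all tested genes. With SHH left out, 3 of 27 were higher (11.1%) and 1 lower (3.70%). The log2 ratios of the listed pathway genes had a median of 1.07, with SHH and without it. The median was 1.01 over all 2005 rows and 1.50 over the higher rows. No row differed by less than 2-fold, so the value over all rows lies at that limit and is no background. SHH was the listed ligand of 3, and IHH and DHH had no row. HHAT, the enzyme that attaches palmitate to hedgehog ligands, was at 0.13 and 0.69 FPKM (10 and 54 reads, ratio 5.59, interval 2.82 to 12.3). SCUBE3, from a family of secreted proteins that help release the lipid-bound ligand, was at 0.49 and 1.13 FPKM (ratio 2.30, interval 1.78 to 2.997). Both genes were low in both libraries.

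On the receiving side, PTCH1, SMO and the co-receptors CDON, BOC, GAS1 and LRP2 had no row, nor did the ligand trap HHIP. GPR161, a ciliary receptor that restrains the pathway, was at 2.65 and 5.68 FPKM (ratio 2.16, interval 1.94 to 2.40). It was the listed one of 10 intracellular transducers. GLI1, GLI2, GLI3 and SUFU were without a row. GPC3, a glypican that competes with PTCH1 for the ligand, went the other way, at 47.5 and 18.3 FPKM, 2.59-fold lower (interval 2.40 to 2.79).

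Few targets of the pathway had a row. Of 21 target genes, 4 were listed, 2 higher (9.52%) and 2 lower (9.52%). With 5.86% and 4.98% of all tested genes listed in those directions, these counts are near the background, and nothing is read from them. Their log2 ratios had a median of -0.096, which is the midpoint of CCND1 and SPP1 and sums up neither direction. CCND1, the cell cycle gene of cyclin D1, was at 19.0 and 50.7 FPKM (ratio 2.67, interval 2.53 to 2.82). FOXL1, a forkhead gene of gut mesenchyme, was at 0.05 and 0.41 FPKM on 4 and 29 reads (ratio 7.50, interval 2.63 to 29.4). SPP1, which encodes osteopontin, was 3.04-fold lower (interval 2.68 to 3.46), at 27.8 and 9.08 FPKM. OLIG2, a ventral neural tube factor that answers to SHH, measured 0.45 FPKM on 26 reads with scramble and had none with the shRNA. With the missing reads set to a floor of 3, OLIG2 was 8.38-fold lower. The exact interval from the reads themselves ran from 6.34-fold upward. CCND1 answers to several pathways besides hedgehog, and the direct targets GLI1, PTCH1 and HHIP had no row.

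**Figure D2:**
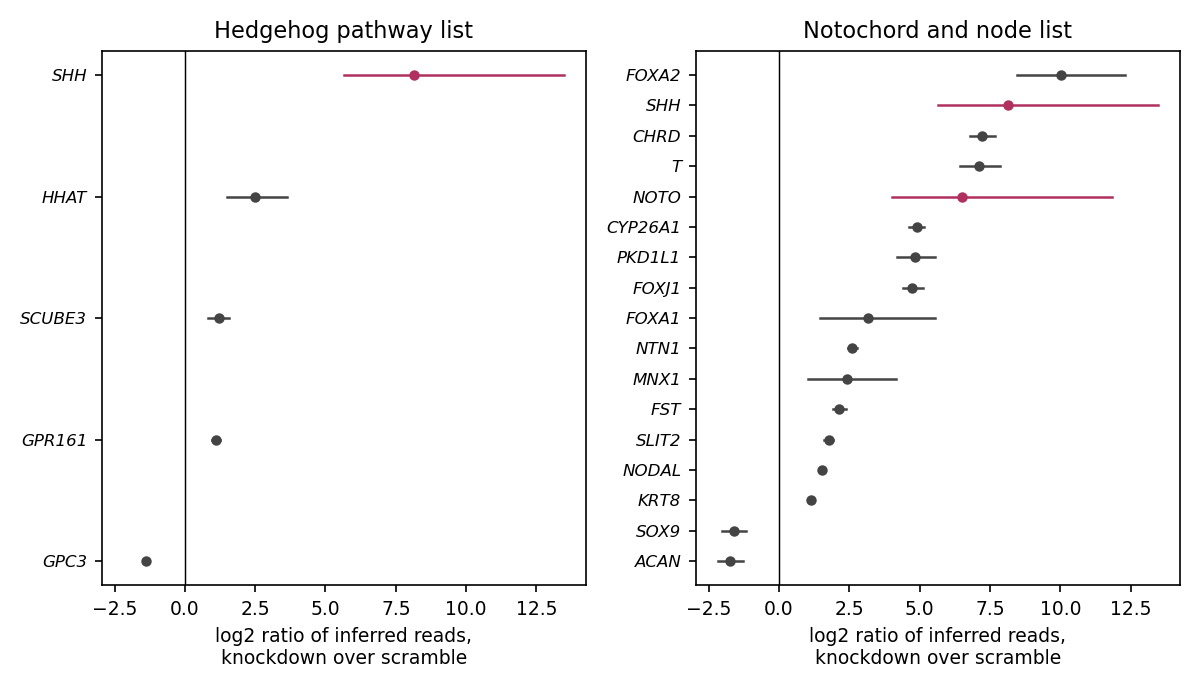
Log2 ratio of inferred reads, knockdown over scramble (horizontal axes), for the listed genes of the hedgehog pathway (left) and of the notochord and node (right); points are ratios and lines exact 95% intervals of counting, with SHH and NOTO in red. SHH (ratio 285) and NOTO (92.1) have the long intervals that come with 1 scramble read, while SOX9, ACAN and GPC3 lie left of 0.

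Most listed notochord and node genes were higher with the shRNA. Of 35 such genes, 17 had a row, 15 higher (42.9%) and 2 lower (5.71%), beside 5.86% and 4.98% of all tested genes. Without SHH and NOTO these were 13 higher and 2 lower of 33, and the median of the log2 ratios was 2.09. The list was written with earlier results of these data known, so its count is a description. T, the brachyury gene needed for notochord formation, was at 0.23 and 32.1 FPKM (ratio 138, interval 87.1 to 233). FOXA2, a forkhead factor of node, notochord, floor plate and endoderm that acts on SHH, was at 0.05 and 56.5 FPKM (ratio 1043 on 3 scramble reads, interval 357 to 5060). CHRD, whose product chordin binds and blocks BMPs, was at 0.54 and 79.4 FPKM (ratio 148, interval 111 to 204). FOXJ1, the ciliary regulator downstream of Noto in the mouse, was at 1.12 and 29.9 FPKM (ratio 26.8, interval 21.0 to 34.7).

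The other members on the list ranged widely. PKD1L1, a node channel protein of left-right patterning, was at 0.10 and 2.83 FPKM, nearly the knockdown level of NOTO. CYP26A1, which degrades retinoic acid, was at 2.59 and 77.0 FPKM, and NODAL, a ligand made around the node, at 22.4 and 64.4 FPKM. NTN1 (netrin-1, an axon guidance cue) was at 2.54 and 15.5 FPKM, and FST (follistatin, an Activin antagonist) at 4.50 and 19.6 FPKM. FOXA1 and MNX1 were both under 1 FPKM, at 0.04 and 0.34 FPKM and at 0.11 and 0.54 FPKM. The keratin gene KRT8 was already at 293 FPKM in the control and reached 640 FPKM after knockdown. KRT8, NODAL and CYP26A1 are uncertain, since 35.3%, 41.0% and 32.6% of their words occur in another gene.

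The 2 lower genes of the list, SOX9 and ACAN, are cartilage genes of the notochord sheath. Their share (5.71%) is near the 4.98% of all tested genes, and nothing is read from it. SOX9, a regulator of sheath and cartilage matrix genes, was at 2.22 and 0.74 FPKM, 3.02-fold lower (interval 2.27 to 4.06). ACAN, the aggrecan gene, was at 0.97 and 0.29 FPKM, 3.30-fold lower (interval 2.45 to 4.50). COL2A1, NOG, SOX5, SOX6, LEFTY1 and LEFTY2 had no row.

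As a check of the label, 7 of 9 notochord markers had a row, 6 higher and 1 lower. SHH and NOTO are among them and were chosen for their difference, so they cannot check the label. Without these 2, 5 of 7 markers had a row, 4 higher (57.1%) and 1 lower (14.3%), beside 5.86% and 4.98% of all tested genes. Their summed level was 4.16 FPKM with scramble and 199 FPKM with the shRNA. With SHH and NOTO the sums were 4.22 and 208 FPKM. The other markers were also chosen with earlier results of these data known. FOXA2 is on the endoderm and floor plate lists too, and CHRD is on the prechordal plate list. FOXA2 and CHRD therefore cannot tell notochord from those tissues. Ordered by knockdown level, the 7 listed markers ran CHRD (79.4 FPKM), FOXA2 (56.5), T (32.1), FOXJ1 (29.9), SHH (6.11), NOTO (2.85) and SOX9 (0.74). Only T and FOXJ1 had overlapping Poisson intervals among neighbours in that order (30.8 to 33.4 and 28.5 to 31.3 FPKM). SHH and NOTO were thus the 2 lowest of the 6 higher markers. FOXA2 was 9.25 times the level of SHH, and T was 11.3 times the level of NOTO.

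**Figure D3:**
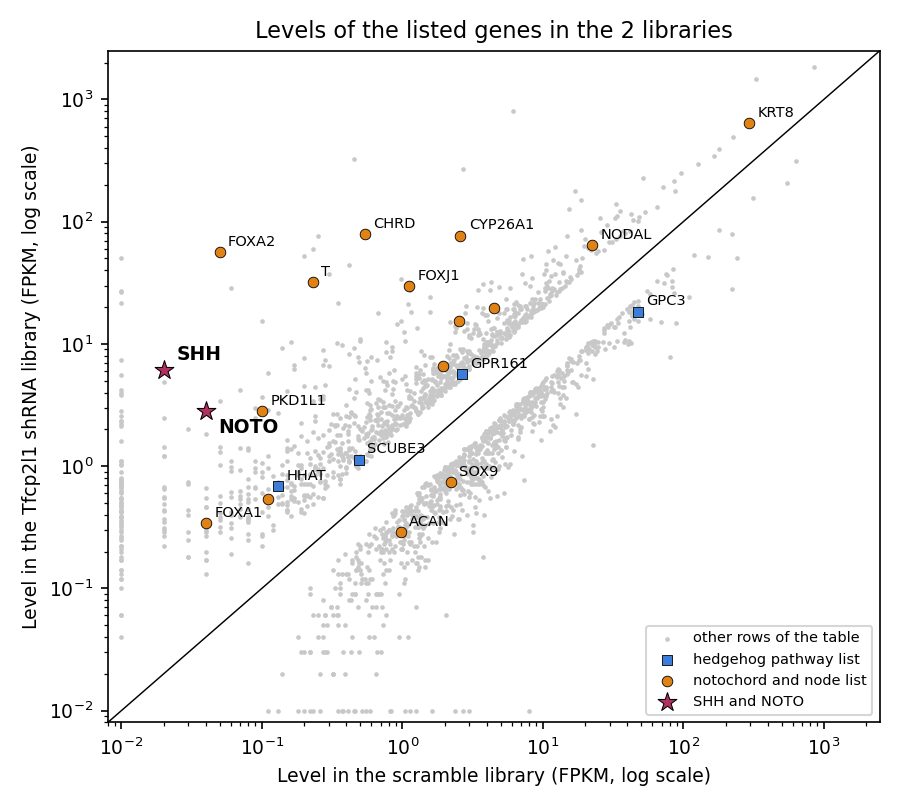
Level of each of the 2005 listed genes in the scramble library (horizontal, FPKM, log scale) and in the Tfcp2l1 shRNA library (vertical, FPKM, log scale), with the hedgehog pathway list as squares, the notochord and node list as circles and the line of equal levels. The stars of SHH (0.02 and 6.11 FPKM) and NOTO (0.04 and 2.85 FPKM) lie far left and above the line, below FOXA2, T and CHRD; the empty band along the line is where the authors' limits removed genes.

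Markers of other cells that use SHH or FOXA2 differed as well. All 7 definitive endoderm markers were listed and higher, beside 5.86% of all tested genes. The notochord markers summed to 208 FPKM with the shRNA. The endoderm markers had a summed level of 8.24 FPKM with scramble and 1016 FPKM with the shRNA. Most of that sum was CER1, a secreted Nodal and BMP antagonist, at 6.11 and 799 FPKM. Without CER1, a sum added after the values were seen, the other 6 came to 2.13 and 217 FPKM. The notochord sum still holds its own highest marker, CHRD (79.4 FPKM), so 217 and 208 FPKM are not like for like. The lists share FOXA2. SOX17, an endoderm regulator, had no scramble reads and was at 26.6 FPKM. Of 7 floor plate markers, 3 were listed, SHH, FOXA2 and NTN1, all higher, or 2 of 6 without SHH. SPON1, CORIN, FERD3L and SOX1 had no row. Of 8 markers of paraxial and lateral mesoderm, PDGFRA was listed (0.57 and 1.86 FPKM), and none of 6 trophectoderm and amnion markers was. Of 7 markers of undifferentiated stem cells, the labelled cell type, 2 were listed, both lower (28.6%), beside 4.98% of all tested genes. They were SOX2 (180 and 86.1 FPKM) and PODXL (222 and 79.1 FPKM), both still high. POU5F1, NANOG, LIN28A, DPPA4 and TDGF1 had no row, so their levels are unknown here. Which of these cells carried the SHH and NOTO transcripts was not tested.

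Genes of the tissue just ahead of the notochord, the prechordal plate and anterior axial mesendoderm, were mostly listed. Of 16, 13 had a row and all 13 were higher (81.3%), beside 5.86% of all tested genes. The median of their log2 ratios was 6.96. This list is not separate from the others. CER1, EOMES, FOXA2, GATA6 and SOX17 are also definitive endoderm markers. HHEX is on the gut endoderm list, and CHRD and FOXA2 are on the notochord and node list. GSC, a homeobox gene of the organizer, was at 0.30 and 37.5 FPKM (ratio 126, interval 63.9 to 294). The WNT inhibitor DKK1 was at 0.10 and 15.4 FPKM (ratio 157, interval 61.2 to 580). Its fellow inhibitor FRZB was at 0.08 and 0.68 FPKM. LHX1 (0.20 and 52.8 FPKM), EOMES (0.25 and 76.0 FPKM) and GATA6 (0.06 and 28.7 FPKM) were all far above SHH in the knockdown library. The gut endoderm list had 10 of 20 genes with a row, 9 higher (45.0%) and SOX2 lower (5%). Of all tested genes, 5.86% were listed as higher and 4.98% as lower. HNF4A was at 0.03 and 0.74 FPKM and GATA4 at 0.15 and 4.12 FPKM. IHH, NKX2-1 and PDX1, of later gut, had no row.

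SHH is also the best known gene of holoprosencephaly, a failure of the forebrain to divide. Of 18 genes tied to that condition, 6 had a row, 5 higher (27.8%) and 1 lower (5.56%). The median of the log2 ratios was 2.16. With SHH left out, 4 of 17 were higher (23.5%) and 1 lower (5.88%), and the median was 2.13. Of all tested genes, 5.86% were listed as higher and 4.98% as lower. ZIC2, a zinc finger factor, was at 18.7 and 85.5 FPKM (ratio 4.58, interval 4.31 to 4.87). FGF8, a growth factor of the streak and forebrain, was at 4.88 and 29.1 FPKM (ratio 5.96, interval 4.84 to 7.40). SIX3, a forebrain factor that acts on SHH, had no scramble reads and 21 knockdown reads, at 0.38 FPKM. With the missing reads set to the floor of 3, SIX3 was 7.24-fold higher. The exact interval from the reads themselves ran from 5.39-fold upward. DLL1, a Notch ligand, was lower at 3.08 and 1.42 FPKM.

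Of 16 floor plate and ventral neural tube genes, 6 had a row. There were 4 higher (25%) and 2 lower (12.5%), beside 5.86% and 4.98% of all tested genes. Their median on the log2 scale was 2.55. With SHH left out, 3 of 15 were higher (20%) and 2 lower (13.3%), and the median was 2.54. Beside SHH, FOXA2 and NTN1, the higher one was LMX1B, a LIM homeobox gene, at 0.17 and 1.47 FPKM (ratio 8.54, interval 5.53 to 13.8). SLIT1, an axon guidance gene, was lower with OLIG2, at 0.80 and 0.30 FPKM. NKX2-2, NKX6-1 and PAX6, which read the SHH gradient in the neural tube, had no row.

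Cilia genes of the node were considered because Noto acts above Foxj1 in the mouse. Of 15, 6 had a row and all 6 were higher (40.0%), beside 5.86% of all tested genes. The median of their log2 ratios was 2.87. Among the 6, FOXJ1 and PKD1L1 are also on the notochord and node list. The dynein gene DNAH5 was at 0.08 and 1.36 FPKM (ratio 17.7, interval 12.1 to 26.9). The tektin gene TEKT2 was at 0.55 and 4.16 FPKM (ratio 7.71, interval 4.92 to 12.6). SPAG6, of the ciliary central apparatus, was at 0.02 and 0.55 FPKM on 1 and 32 reads. CFAP126 (2.16 and 8.89 FPKM) is uncertain, because another gene holds 85.2% of its words. RFX2 and RFX3 had no row. Of 7 homeobox relatives of NOTO, HHEX was listed, at 0.98 and 15.5 FPKM, and EMX1, EMX2, VAX1, VAX2, EN1 and EN2 had no row.

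Genes near SHH or NOTO on the chromosome were looked up next. RefSeq places 48 other genes within 1 Mb of the SHH start, and 1 of them had a row. That gene, the long noncoding RNA RBM33-DT, was lower, at 2.81 and 1.00 FPKM. Of 47 genes within 1 Mb of NOTO, 3 had a row. Many of these neighbours are noncoding: of the protein-coding ones, 0 of 7 near SHH and 3 of 21 near NOTO (14.3%) had a row, beside 10.8% of all tested genes in either direction. SFXN5 was higher at 4.16 and 8.49 FPKM (ratio 2.03, interval 1.80 to 2.29). C2orf78 (0.72 and 0.07 FPKM) and MTHFD2 (119 and 53.3 FPKM) were lower, and MTHFD2 is uncertain, because 44.6% of its words occur in another gene. EMX1, a homeobox gene that lies in the NOTO window, had no row.

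Likeness to each gene was measured as the distance between pairs of log2 levels, with 0.1 FPKM added, over the 2 libraries. The 5 genes nearest to SHH were ANKRD1 (0.02 and 6.22 FPKM, distance 0.025), PRSS1, LINC00261, LOC730100 and GATA6-AS1 (distance 0.558). None of these is on the hedgehog or notochord lists, and 97.3% of the words of LINC00261 occur in another gene. The 5 nearest to NOTO were ANGPT2 (0.05 and 3.44 FPKM, distance 0.281), BRINP2, DHRS13, TBC1D9 and U2AF1L5 (distance 0.496). DHRS13 and U2AF1L5 share 53.5% and 98.8% of their words with other genes and are uncertain. SHH and NOTO were 1.097 apart, while FOXA2 was 3.20 from SHH and T was 3.66 from NOTO. Over 2 libraries such a distance reflects only level and direction.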

How the data were processed

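Per the labels' protocols, 1 ug of total RNA per library was taken with Trizol and run on the BGISEQ-500 platform. The submitters' processing notes name hg19 and Bowtie 0.12.2; how reads were counted, quantified, tested and filtered is not given in the sources used here. The authors' deposited table gives a level per library, read here as FPKM because the values scale with inferred reads per kilobase. The deposited log2 values match the log2 of knockdown level divided by scramble level. The deposited p-value and false discovery rate are the authors', and their largest rate is 0.00099.

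Whole reads were inferred from each deposited p-value (Audic and Claverie test, doubled tail, within 0.0002 on the natural log) and both levels. This gave exactly 1 pair for 1633 of 1926 genes with a p-value above 0. Reads of other genes, among them FOXA2, T, CHRD and FOXJ1, were estimated from FPKM. The step was tested on data simulated with the same test formula and depths. Such a test cannot show that the authors' own counts follow that formula. Python 3.11.15 and SciPy 1.17.1 were used. With 1 library per group no p-value was computed, and intervals and floors cover only counting error, because PCR copies of a molecule cannot be recognised here.

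Members and gene lists were chosen with earlier results of these data known. Some genes of the lists are not reported here and are left out of the counts and medians. Named genes were SHH, NOTO, TFCP2L1, the listed hedgehog, floor plate and NOTO relative genes, up to 8 highest and 4 lowest of each other list, listed neighbours and the 5 nearest genes. Alternatives were other pseudocounts, a limit of 1 FPKM, the authors' ratio and the ratio of inferred reads.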

Additional observations from a re-analysis of the deposited data

How the results depend on the processing

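SHH and NOTO were higher in the knockdown library under every setting tried: pseudocounts of 0.01, 0.1 and 1 FPKM, the authors' log2 ratio and the ratio of inferred reads. A pseudocount added to both levels cannot reverse a direction, and the other ratios rest on the same levels. The shared direction is therefore no separate check, and only the size of the ratio could change. Log2 ratios ran from 2.80 to 8.26 for SHH and from 1.89 to 6.52 for NOTO. A change was counted as moved when it exceeded the counting interval (for lists, the median half-width over members). With a pseudocount of 1 FPKM the value moved for SHH (2.80), prechordal plate (4.81), gut endoderm (2.61), holoprosencephaly (1.81), NOTO relatives (3.06), node cilia (1.69), notochord and node (1.89) and hedgehog pathway (0.58). Restricted to members at 1 FPKM or more it moved for floor plate (4.13) and notochord and node (4.14). With the authors' log2 ratio it moved for node cilia (4.41) and notochord and node (3.09). The low levels of many members make them depend on the pseudocount by construction. No paired analysis was possible because each group has 1 library. Depth limits the control level of SHH and NOTO, which rests on 1 read each, and no setting replaces a second culture.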

Other observations

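The authors' deposited table also carries process annotations, and 9 of its rows name signalling through smoothened. These rows were gathered after their values were seen. Of them 7 were higher and 2 lower, and of all 2005 rows 54.1% were higher. The median of their log2 ratios was 1.18. The value over all rows, 1.01, lies at the authors' 2-fold limit and is no background. CHRD and SHH had the highest ratios. OTX2, a forebrain and anterior mesendoderm factor, was at 12.3 and 62.2 FPKM (ratio 5.07, interval 4.64 to 5.54). The WNT5A receptor gene ROR2 was at 6.44 and 22.1 FPKM (ratio 3.42, interval 3.12 to 3.75). The cilium-related genes C21orf2 (3.18 and 7.32 FPKM) and TTC26 (1.27 and 2.75 FPKM) were close to GPR161 in ratio, at 2.27 and 2.16. FGFR2 was lower with GPC3, at 29.2 and 13.7 FPKM (ratio 0.468, interval 0.438 to 0.5001).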
